A study of Mus musculus with 54 samples.

Results

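Naive CD4+ T cells that are stimulated through the T cell receptor and CD28 are known to raise glycolysis. Here, RNA of 43 genes of that pathway and its branches was followed through 0, 4 and 20 h of stimulation. The genes are called members below. They were taken by name, as a list, from the 55385 genes of the count tables: 2 glucose transporters, 3 hexokinases, the isomerase Gpi1, 3 phosphofructokinases, 3 enzymes that set fructose 2,6-bisphosphate, 2 aldolases, the steps from Tpi1 to pyruvate kinase, 2 lactate dehydrogenase subunits, 2 lactate carriers, the pyruvate carrier and the pyruvate dehydrogenase complex with its kinases and phosphatase, the hypoxia factor Hif1a, and 7 genes of the pentose phosphate pathway. The list uses no measured value, though it was drawn up with earlier results of these data known. All 43 had reads in both experiments and passed edgeR's filter on low counts.

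RNA was sequenced from naive CD4+ T cells of C57BL/6 background mice, purified from lymph nodes and spleens. The CD5/CD6 experiment compared WT, Cd5-/-, Cd6-/- and Cd5-/-Cd6-/- cells, enriched with magnetic beads (36 libraries), and the LAT experiment compared WT and Lat-/- cells, sorted by flow cytometry from Latfl-dtr maT-Cre mice where WT cells show the human diphtheria toxin receptor (hDTR+) and Lat-/- cells do not (hDTR-) (18 libraries). CD5 and CD6 are related receptors of the T cell surface, and LAT is the adaptor on which T cell receptor signals assemble. Each genotype was measured at 0 h and after 4 and 20 h of stimulation with anti-CD3 on the plate (3 µg/ml) and anti-CD28 in solution (1 µg/ml). There were 3 libraries per condition. The Cd5-/- line was backcrossed to C57BL/6, and the Cd6-/- and Cd5-/-Cd6-/- lines were made by genome editing, so each genotype stands for 1 line. Both genotypes of the LAT experiment came from the same kind of mouse, with a floxed Lat allele tagged with hDTR and a Cre transgene, and the WT cells were those that still showed hDTR. RNA of the 0 h cells was extracted right after purification, so that stimulation and time in culture cannot be told apart. Replicates are called biological by the submitters, and whether each came from its own mice is not given.

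In glycolysis, hexokinases trap glucose in the cell as glucose 6-phosphate, phosphofructokinase-1 commits it to breakdown, and the lower steps give ATP and pyruvate. Pyruvate either becomes lactate and leaves through monocarboxylate carriers, or enters the mitochondrion and is burned after the pyruvate dehydrogenase complex, which pyruvate dehydrogenase kinases switch off. The pentose phosphate pathway draws on glucose 6-phosphate to make NADPH and ribose for nucleotides. Activated T cells are known for taking up more glucose and releasing lactate even in oxygen, a program in which MYC and HIF-1 are both known to act on promoters of glycolytic genes, through the letters CACGTG (the E-box) and ACGTG or GCGTG (the core of the hypoxia response element).

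Promoters of 41 of the 43 genes were found by symbol in the RefSeq table of GRCm38.p6 (not Slc2a3 and Pdp1). In the 250 bases before the first listed start site, on either strand, CACGTG was present in 6 of 41 (14.6%), against 6.05% of 27025 promoters of all genes, and ACGTG or GCGTG was present in 33 of 41 (80.5%), against 38.6% (CACGTG holds ACGTG on both strands, so the counts overlap). The base composition of the promoters was not matched. Of the genes that both experiments called higher at 20 h, 12 of 15 (80%) held ACGTG or GCGTG, and among the others 21 of 26 (80.8%). CACGTG was in 3 of 15 (20%) and 3 of 26 (11.5%). The 5 promoters below belong to genes that rose in both experiments and held the most matches of ACGTG or GCGTG, counted on each strand. They are printed 5′ to 3′ on the gene's strand, and capitals mark these motifs on either strand.
Ldha, chr7:46845554-46845803, plus strand: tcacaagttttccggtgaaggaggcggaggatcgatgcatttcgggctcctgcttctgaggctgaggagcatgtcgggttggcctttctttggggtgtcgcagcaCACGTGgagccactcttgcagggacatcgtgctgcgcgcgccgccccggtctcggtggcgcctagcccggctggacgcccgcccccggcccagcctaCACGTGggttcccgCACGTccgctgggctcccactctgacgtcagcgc
Pdk3, chrX:93832151-93832400, minus strand: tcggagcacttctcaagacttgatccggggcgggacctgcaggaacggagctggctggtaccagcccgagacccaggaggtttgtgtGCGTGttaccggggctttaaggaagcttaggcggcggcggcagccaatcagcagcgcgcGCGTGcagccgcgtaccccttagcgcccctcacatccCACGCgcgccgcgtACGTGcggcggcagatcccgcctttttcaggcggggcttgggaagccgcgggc
Slc16a1, chr3:104638414-104638663, plus strand: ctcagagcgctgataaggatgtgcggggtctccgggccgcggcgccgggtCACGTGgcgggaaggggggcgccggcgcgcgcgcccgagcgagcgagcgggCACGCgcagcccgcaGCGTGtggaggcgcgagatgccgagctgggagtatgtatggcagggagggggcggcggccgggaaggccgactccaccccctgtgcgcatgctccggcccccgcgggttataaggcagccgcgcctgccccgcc
Hif1a, chr12:73907617-73907866, plus strand: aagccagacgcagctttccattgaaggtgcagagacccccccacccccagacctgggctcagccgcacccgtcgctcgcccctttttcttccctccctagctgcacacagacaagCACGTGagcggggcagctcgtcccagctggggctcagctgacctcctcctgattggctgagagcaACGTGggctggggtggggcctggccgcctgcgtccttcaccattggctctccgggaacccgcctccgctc
Pgam1, chr19:41911621-41911870, plus strand: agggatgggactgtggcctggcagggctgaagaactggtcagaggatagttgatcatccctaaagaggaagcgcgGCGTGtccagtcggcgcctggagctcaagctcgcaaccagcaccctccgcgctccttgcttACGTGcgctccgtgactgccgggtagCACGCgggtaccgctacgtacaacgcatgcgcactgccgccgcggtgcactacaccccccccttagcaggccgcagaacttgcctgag
Ldha held 5 matches and 2 copies of CACGTG, Pdk3 and Slc16a1 held 4 matches, and Hif1a and Pgam1 held 3. Slc16a1 and Hif1a held 1 copy of CACGTG each. Every CACGTG counts as 2 matches, since it holds ACGTG on both strands, so matches can outnumber the marked stretches. Tpi1, Aldoa and Pkm, which also rose, held 0 matches in this window.

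Libraries held 20554354 to 45222554 counts in the CD5/CD6 experiment and 17784644 to 28501095 in the LAT experiment, and 3 counts corresponded to 0.0663 to 0.146 and 0.105 to 0.169 CPM (counts relative to the scaled library total), a floor that covers counting error only. In the LAT experiment, Lat was at 92.2 to 351 CPM in WT and at 5.69 to 19.1 CPM in Lat-/- libraries. Its hDTR+ WT cells had 214 to 292 CPM at 0 h, 262 to 351 CPM at 4 h and 92.2 to 105 CPM at 20 h. WT libraries of the CD5/CD6 experiment had more Lat, at 649 to 792, 1077 to 1345 and 459 to 631.5 CPM. The WT groups thus differed in Lat RNA as well as in purification, and the part of this in their results was not tested. In the CD5/CD6 experiment, the 0 h libraries 2 labelled Cd5-/- and Cd6-/- went against their labels: the first had Cd5 at 719.5 CPM, against 129 and 105 in its group, and Cd6 at 329 CPM, and the second had Cd5 at 173 CPM, against 719 and 724 in its group, and Cd6 at 1203 CPM, against 349.5 and 251 in its group. Both levels of the first lay within those of the other 2 Cd6-/- libraries at 0 h. Those of the second lay within (Cd6, 1084 to 1298 CPM) or above (Cd5) those of the other 2 Cd5-/- libraries. Calls and the lowest p-values that rest on those libraries are given with and without them. Genes of naive CD4+ T cells (7 genes: Cd3d, Cd3e, Cd3g, Cd4, Lck, Trac and Zap70) summed to 3636 to 8745 CPM in all WT libraries. The bead-enriched WT libraries also held erythroid (8 genes, 1104 to 2506 CPM), B cell (7 genes, 111 to 617 CPM) and myeloid RNA (12 genes, 150 to 376 CPM) at 0 h, which was at 9.67 to 48.9, 1.86 to 3.5 and 0.875 to 1.36 CPM by 20 h. The same lists summed to at most 6.99 CPM in each sorted WT library. In such bulk samples, fewer cells of a type and less RNA per cell cannot be told apart.

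Reads of several members may be shared with other genes. Of all 50-base stretches in their transcripts, 53.9% occurred in another gene for Pgk1, 36.2% for Pgam1, 26.3% for Mpc1, 26% for Eno1, 25.8% for Pkm, 25.1% for Gapdh and 21% for Ldhb, and 13 of the 43 shared none with an annotated transcript. Gapdh, often the most abundant of these mRNAs, had 8792 reads over all 36 CD5/CD6 libraries, and levels of these 7 genes are therefore uncertain. Pgls overlaps Fam129c on the same strand over 776 exonic bases, and its counts may hold reads of that neighbor. Other same-strand overlaps include Pkm with Gm49759 (767 bases), Pfkfb2 with Gm29427 (1262 bases) and Pfkm with Gm26513 (341 bases). Further members overlap genes of the opposite strand, such as G6pdx with Ikbkg (418 bases) and Slc16a3 with Csnk1d (306 bases). The strand setting of the counting is not given.

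After stimulation the members moved in both directions at 4 h and mostly upward by 20 h. In the CD5/CD6 experiment's WT cells, 13 members were higher and 9 lower at 4 h (fold change above 2 and adjusted p under 0.05 by edgeR's quasi-likelihood test), where 8.24% of all genes tested were higher and 11.1% lower. At 20 h, 20 were higher and 5 lower (12.3% and 17.3% of all genes), and from 4 to 20 h 17 rose and 3 fell (8.74% and 12.2%; 11 and 7 members with upper-quartile scaling). In the LAT experiment's WT cells, 11 were higher and 8 lower at 4 h (8.05% and 9.29%), 16 higher and 4 lower at 20 h (10.8% and 12.7%), and 11 rose and 2 fell from 4 to 20 h (7.9% and 9.32%; 4 fell with upper-quartile scaling). Most genes tested had few reads. Among genes that passed edgeR's filter on low counts, as all members did, 15.7% were higher and 21.2% lower at 4 h and 23.2% and 30.8% at 20 h in the CD5/CD6 experiment. In the LAT experiment 14.8% and 17.6% were at 4 h and 19.7% and 23% at 20 h. From 4 to 20 h these shares were 16.6% and 22.6%, and 14.8% and 17%. The median log2 fold change over the members was 0.37 at 4 h and 0.79 at 20 h in the CD5/CD6 experiment, and 0.12 and 0.61 in the LAT experiment, beside 0 over all genes and −0.13, −0.16, −0.04 and −0.09 over those that passed the filter.

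The experiments, which share no libraries, called many of the same members. All 11 genes called higher at 4 h in the LAT experiment were also higher in the CD5/CD6 experiment (84.6% of the 13 there): Slc2a1, Hk2, Pfkfb3, Pgk1, Pgam1, Eno2, Ldha, Slc16a1, Slc16a3, Hif1a and Rpia. At 20 h, 15 were higher in both (75% of 20 and 93.8% of 16): Slc2a1, Hk2, Pfkl, Aldoa, Tpi1, Pgk1, Pgam1, Pkm, Ldha, Slc16a1, Slc16a3, Pdk3, Hif1a, Pgd and Tkt. Genes lower in both were Pfkm, Pfkfb2, Pfkfb4, Aldoc, Eno1, Ldhb and Pdk1 at 4 h, and Hk3, Pfkfb2, Pfkfb4 and Pdk1 at 20 h. From 4 to 20 h, 11 rose in both (64.7% of 17 and 100% of 11): Hk2, Pfkl, Pfkm, Aldoc, Tpi1, Pgk1, Eno1, Eno3, Pkm, Ldhb and Pdk3. No member was called in opposite directions. The overlap of calls between the experiments was not counted over all genes, so it is not read as particular to these members. With scaling by library totals in place of TMM, the 4 h calls of Slc2a1, Aldoa and Tkt in the CD5/CD6 and of Slc2a1, Pgk1, Eno2 and Rpia in the LAT experiment were lost.

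**Figure D1:**
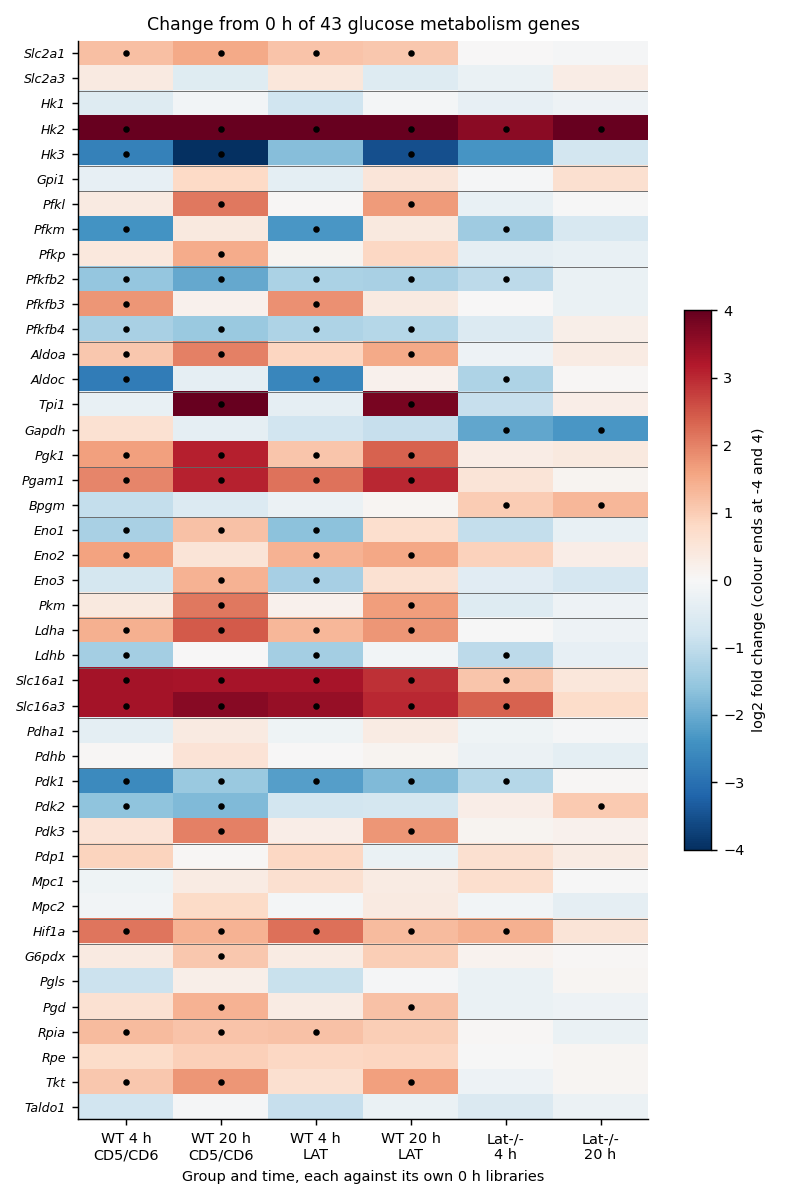
Log2 fold change of each of the 43 genes (rows, in pathway order, with lines between roles) against the 0 h libraries of the same group, for WT cells of both experiments and for Lat-/- cells at 4 and 20 h (columns). Red is higher, blue is lower, colors end at −4 and 4, and black dots mark fold changes above 2 with adjusted p under 0.05: Hk2 is dotted in all 6 columns, and the 2 Lat-/- columns hold 11 and 4 dots where the WT columns hold 19 to 25.

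Slc2a1 (ENSMUSG00000028645.11, chr4:119108711-119137983, plus strand; GRCm38, GENCODE) encodes GLUT1, the transporter through which activated T cells take up most of their glucose. WT libraries of the CD5/CD6 experiment had 45.0, 41.7 and 61.0 CPM at 0 h, 107, 105 and 127 CPM at 4 h, and 127, 149 and 149 CPM at 20 h. Those of the LAT experiment had 46.9, 53.6 and 52.7 CPM at 0 h, 119, 120.1 and 99.1 CPM at 4 h, and 106, 109.8 and 104 CPM at 20 h. Every stimulated library was above every 0 h library in both. The log2 fold change (here and below ± SE) was 1.20 ± 0.16 (adjusted p = 1.88e-09) at 4 h and 1.52 ± 0.16 (adjusted p = 3.41e-13) at 20 h in the CD5/CD6 experiment. The LAT experiment gave 1.14 ± 0.15 (adjusted p = 2.21e-12) and 1.06 ± 0.15 (adjusted p = 5.26e-11). Slc2a3 encodes GLUT3, a transporter of high affinity. It was at 62.5, 58.8 and 66.9 CPM at 0 h, 78.6, 77.0 and 87.5 CPM at 4 h, and 45.8, 44.5 and 44.9 CPM at 20 h in the CD5/CD6 experiment. The LAT experiment's WT libraries had 58.9, 47.0 and 68.9 CPM at 0 h, 63.9, 102 and 71.7 CPM at 4 h, and 38.6, 44.0 and 41.0 CPM at 20 h. Slc2a3 libraries at 20 h lay below those at 0 h in both experiments, but with log2 fold changes of −0.48 ± 0.15 (adjusted p = 0.00507) and −0.50 ± 0.16 (adjusted p = 0.00464) it did not reach the fold change of 2.

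Of the hexokinases, Hk2 (ENSMUSG00000000628.10, chr6:82725025-82774454, minus strand), the inducible form, showed the largest rise among the 43 genes. From 1.596, 1.42 and 3.35 CPM at 0 h, WT libraries of the CD5/CD6 experiment went to 50.8, 65.7 and 47.5 CPM at 4 h and 178, 176 and 106 CPM at 20 h. The LAT experiment's WT libraries had 0.863, 0.496 and 0.875 CPM at 0 h, 37.9, 40.7 and 20.5 CPM at 4 h, and 124, 138 and 119.5 CPM at 20 h. No library overlapped between times in either experiment. Its log2 fold change was 4.67 ± 0.29 (adjusted p = 5.61e-24) and 6.15 ± 0.30 (adjusted p = 1.63e-29) at 4 and 20 h, or 71.2-fold at 20 h, and 5.45 ± 0.23 (adjusted p = 9.64e-119) and 7.40 ± 0.24 (adjusted p = 4.14e-200) in the LAT experiment. Hk1, the hexokinase of resting cells, was at 223, 212 and 240.2 CPM at 0 h, 145, 172 and 152 CPM at 4 h, and 233, 229.9 and 158 CPM at 20 h in the CD5/CD6 experiment. It was at 244, 234 and 240.2 CPM at 0 h, 133, 141 and 136 CPM at 4 h, and 233, 256 and 188 CPM at 20 h in the LAT experiment. All 4 h libraries of Hk1 lay below those at 0 h, and its log2 fold changes at 4 h, −0.53 ± 0.18 (adjusted p = 0.0173) and −0.81 ± 0.15 (adjusted p = 4.67e-07), did not reach a fold change of 2. Hk3 is a hexokinase of myeloid cells. Bead-enriched WT cells had 49, 102 and 159 reads of it at 0 h, 8, 8 and 25 at 4 h and 0, 0 and 0 at 20 h, at least 25.1-fold lower at 20 h than at 0 h (floor of 3 counts per library). Sorted WT cells had 15, 1 and 14 reads at 0 h, 0, 2 and 6 at 4 h and 2, 0 and 0 at 20 h. Myeloid genes fell with it in the bead-enriched cells, from 150 to 376 CPM to 0.875 to 1.36 CPM, and their part in this result was not tested. Gpi1, which turns glucose 6-phosphate into fructose 6-phosphate, was at 309 to 421 CPM at 0 h and 618 to 652 CPM at 20 h, with 0.79 ± 0.15 (adjusted p = 3.93e-06) and 0.49 ± 0.15 (adjusted p = 0.00309).

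Phosphofructokinase-1, the committed step, is built from Pfkl, Pfkm and Pfkp, named for liver, muscle and platelet. Pfkl had 71.9, 76.4 and 92.6 CPM at 0 h, 102, 106 and 104 CPM at 4 h, and 324, 379.8 and 332 CPM at 20 h in the CD5/CD6 experiment's WT cells. WT libraries of the LAT experiment had 90.1, 108 and 90.0 CPM at 0 h, 102, 85.4 and 112 CPM at 4 h, and 294, 333 and 303 CPM at 20 h. The rise came after 4 h: 0.37 ± 0.15 (adjusted p = 0.0437) at 4 h, which is under a fold change of 2, against 2.10 ± 0.15 (adjusted p = 9.31e-21) at 20 h. The LAT experiment gave 0.06 ± 0.15 (adjusted p = 0.919) against 1.69 ± 0.15 (adjusted p = 5.36e-27). Pfkm dipped and came back. Libraries of the first experiment had 18.3, 22.7 and 22.5 CPM at 0 h, 2.99, 4.71 and 4.50 CPM at 4 h, and 29.7, 28.2 and 24.9 CPM at 20 h. Those of the second had 25.0, 22.7 and 24.6 CPM at 0 h, 4.02, 4.31 and 6.00 CPM at 4 h, and 33.8, 32.5 and 28.8 CPM at 20 h. All its 4 h libraries were below, and all its 20 h libraries above, those at 0 h. The 4 h fall was −2.38 ± 0.19 (adjusted p = 7.35e-18) and −2.33 ± 0.20 (adjusted p = 1.49e-28), and the 20 h value, 0.38 ± 0.18 (adjusted p = 0.0877) and 0.40 ± 0.19 (adjusted p = 0.0913), was not called. Pfkp had 124, 139.8 and 146 CPM at 0 h, 188, 177 and 179.5 CPM at 4 h, and 363, 406 and 385 CPM at 20 h in the CD5/CD6 experiment. Sorted WT cells of the LAT experiment had 151, 138 and 139 CPM at 0 h, 167, 173 and 127 CPM at 4 h, and 259, 272 and 236 CPM at 20 h. Pfkp passed the thresholds at 20 h in the first experiment, 1.50 ± 0.14 (adjusted p = 7.48e-15), and stayed under a fold change of 2 in the second, 0.84 ± 0.15 (adjusted p = 1.34e-07).

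Fructose 2,6-bisphosphate, the strongest activator of phosphofructokinase-1, is made and removed by the Pfkfb enzymes, and Pfkfb3 is the form with the highest kinase activity. It peaked at 4 h, with 75.4, 75.8 and 75.0 CPM at 0 h, 262, 266 and 239.9 CPM at 4 h, and 96.8, 86.6 and 70.3 CPM at 20 h in the CD5/CD6 experiment. Sorted WT cells had 75.6, 42.3 and 72.7 CPM at 0 h, 216, 263 and 191 CPM at 4 h, and 84.6, 78.5 and 83.5 CPM at 20 h. Each 4 h library was above all others. It rose by 1.76 ± 0.16 (adjusted p = 1.22e-15) and 1.81 ± 0.16 (adjusted p = 1.04e-29) at 4 h. From 4 to 20 h it fell again (−1.597 ± 0.16, adjusted p = 7.53e-14 and −1.44 ± 0.15, adjusted p = 2.02e-19). Against 0 h it was not called at 20 h (0.17 ± 0.16, adjusted p = 0.48 and 0.37 ± 0.15, adjusted p = 0.0423). Pfkfb2 and Pfkfb4, its relatives, fell at both times. Pfkfb2 was at 5.63 to 8.19 CPM at 0 h and 1.14 to 2.20 CPM at 20 h (−2.05 ± 0.32, adjusted p = 5.68e-08; LAT experiment −1.28 ± 0.30, adjusted p = 0.000102). Pfkfb4 was at 12.3 to 14.3 and 4.26 to 5.05 CPM (−1.49 ± 0.21, adjusted p = 6.77e-09; LAT experiment −1.15 ± 0.23, adjusted p = 1.91e-06).

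Aldolase splits fructose 1,6-bisphosphate into 2 sugars of 3 carbons. Aldoa, its main form, had 347, 329 and 502 CPM at 0 h, 872, 707 and 896 CPM at 4 h, and 1449, 1539 and 1735 CPM at 20 h in the CD5/CD6 experiment. Its values in the LAT experiment were 421, 568 and 399 CPM at 0 h, 916, 873 and 743 CPM at 4 h, and 1255, 1385 and 1363 CPM at 20 h. Levels at the 3 times did not overlap in either. Aldoa rose by 1.07 ± 0.16 (adjusted p = 4.17e-08) at 4 h and 2.00 ± 0.16 (adjusted p = 5.59e-18) at 20 h in the first experiment. In the second it rose by 1.53 ± 0.15 (adjusted p = 1.99e-23) at 20 h, and its 4 h value, 0.87 ± 0.15 (adjusted p = 2.99e-08), was under a fold change of 2. A second Aldoa identifier (ENSMUSG00000114515.2) held 0 to 16 counts per library and was left apart. Aldoc, the aldolase of brain, was rare and dipped as Pfkm did, from 3.06 to 5.33 CPM at 0 h to 0.441 to 0.710 CPM at 4 h and 2.51 to 4.00 CPM at 20 h (−2.79 ± 0.34, adjusted p = 1.03e-10 at 4 h; LAT experiment −2.62 ± 0.37, adjusted p = 3.21e-11).

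Tpi1 (ENSMUSG00000023456.15, chr6:124810586-124814296, minus strand), which interconverts those sugars, moved late and far. WT libraries of the CD5/CD6 experiment were at 49.0, 49.9 and 64.0 CPM at 0 h, 44.0, 42.0 and 47.1 CPM at 4 h, and 867, 1146 and 1173 CPM at 20 h. Those of the LAT experiment were at 53.0, 61.2 and 58.5 CPM at 0 h, 51.3, 39.2 and 43.4 CPM at 4 h, and 772, 872 and 742 CPM at 20 h. Libraries at 0 and 4 h were near each other and the 20 h libraries stood apart above them. At 4 h the log2 fold change was −0.29 ± 0.18 (adjusted p = 0.265) and −0.37 ± 0.15 (adjusted p = 0.0498), and at 20 h 4.29 ± 0.20 (adjusted p = 9.86e-31), or 19.6-fold, and 3.79 ± 0.17 (adjusted p = 1.37e-112). Gapdh, the next enzyme and a common reference gene, had 7.22, 9.52 and 5.48 CPM at 0 h, 10.6, 13.4 and 9.58 CPM at 4 h, and 7.38, 4.75 and 4.95 CPM at 20 h in the CD5/CD6 experiment. Sorted WT libraries held 13.5, 8.60 and 13.6 CPM at 0 h, 7.85, 8.52 and 4.79 CPM at 4 h, and 5.69, 6.38 and 6.85 CPM at 20 h. It was not called at 20 h, −0.37 ± 0.32 (adjusted p = 0.427) and −0.92 ± 0.24 (adjusted p = 0.00072). Pgk1, which makes the first ATP of the lower pathway, went from 4.16 to 7.52 CPM at 0 h to 15.1 to 18.3 CPM at 4 h and 39.0 to 52.1 CPM at 20 h, a rise of 3.10 ± 0.21 (adjusted p = 2.52e-22), and of 2.35 ± 0.21 (adjusted p = 1.37e-26) in the LAT experiment.

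Phosphoglycerate mutase (Pgam1) had 2.83, 4.31 and 3.42 CPM at 0 h, 15.9, 13.9 and 11.3 CPM at 4 h, and 25.9, 32.1 and 31.4 CPM at 20 h in the CD5/CD6 experiment. The sorted WT libraries gave 2.39, 2.27 and 2.80 CPM at 0 h, 12.9, 11.0 and 9.51 CPM at 4 h, and 20.8, 20.7 and 18.7 CPM at 20 h. It climbed at each step without overlap, by 1.96 ± 0.21 (adjusted p = 1.38e-12) at 4 h and 3.08 ± 0.22 (adjusted p = 5.21e-21) at 20 h, and by 2.16 ± 0.26 (adjusted p = 9.09e-16) and 3.01 ± 0.26 (adjusted p = 2.83e-29). Bpgm makes 2,3-bisphosphoglycerate, best known in red blood cells. Bead-enriched WT cells had 83.4, 62.8 and 78.2 CPM at 0 h, 42.2, 36.3 and 38.0 CPM at 4 h, and 52.2, 52.5 and 49.5 CPM at 20 h. Sorted WT cells had 41.0, 48.7 and 42.1 CPM at 0 h, 35.2, 31.7 and 45.0 CPM at 4 h, and 46.4, 45.6 and 47.7 CPM at 20 h. Neither was called at 20 h (−0.54 ± 0.20, adjusted p = 0.0214 and 0.08 ± 0.16, adjusted p = 0.782). Erythroid genes summed to 1104 to 2506 CPM at 0 h, 1113 to 2128 CPM at 4 h and 9.67 to 48.9 CPM at 20 h in the bead-enriched libraries and to at most 1.96 CPM in the sorted ones, and their part in the Bpgm level at 0 h was not tested.

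Enolase 1 (Eno1) dipped at 4 h before it rose, with 168, 137 and 220.5 CPM at 0 h, 69.1, 64.0 and 80.3 CPM at 4 h, and 371, 425 and 399 CPM at 20 h in the CD5/CD6 experiment. For the LAT experiment they were 206, 285 and 194 CPM at 0 h, 77.0, 68.4 and 76.3 CPM at 4 h, and 348, 391 and 354 CPM at 20 h. All 4 h libraries were below, and all 20 h libraries above, those at 0 h. It fell at 4 h (−1.30 ± 0.16, adjusted p = 1.86e-10; LAT experiment −1.63 ± 0.15, adjusted p = 4.83e-25). At 20 h it was higher in the first experiment, 1.19 ± 0.16 (adjusted p = 1.75e-09), and under a fold change of 2 in the second, 0.68 ± 0.15 (adjusted p = 2.85e-05). Eno2, the neuronal form, stayed at 0.512 to 2.33 CPM and was higher at 4 h (1.61 ± 0.40, adjusted p = 0.00075; LAT experiment 1.40 ± 0.49, adjusted p = 0.0179). From 4 to 20 h it was lower in the CD5/CD6 experiment (−1.10 ± 0.39, adjusted p = 0.0231), and in the LAT experiment it was still higher at 20 h (1.54 ± 0.49, adjusted p = 0.00645). Eno3, the muscle form, went from 11.0 to 13.1 CPM at 0 h to 27.3 to 36.3 CPM at 20 h (1.39 ± 0.17, adjusted p = 7.74e-11; LAT experiment 0.61 ± 0.20, adjusted p = 0.00892, not called), and in the LAT experiment it was lower at 4 h (−1.34 ± 0.21, adjusted p = 1.99e-09). Pyruvate kinase (Pkm) had 401, 361 and 487 CPM at 0 h, 562, 544 and 526 CPM at 4 h, and 1720, 1803 and 1813 CPM at 20 h in the CD5/CD6 experiment. The LAT experiment's WT libraries had 479, 554 and 462 CPM at 0 h, 598, 552 and 525 CPM at 4 h, and 1531, 1628 and 1603 CPM at 20 h. Its rise was late: 0.39 ± 0.14 (adjusted p = 0.0279) at 4 h, under a fold change of 2, and 2.10 ± 0.15 (adjusted p = 1.69e-21) at 20 h, with 0.16 ± 0.15 (adjusted p = 0.508) and 1.67 ± 0.15 (adjusted p = 1.58e-27) in the LAT experiment.

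Lactate dehydrogenase A (ENSMUSG00000063229.15, chr7:46841475-46855627, plus strand) favors the making of lactate from pyruvate. Ldha, whose promoter above holds CACGTG in duplicate, had 549, 533 and 753 CPM at 0 h, 1694, 1420 and 1760 CPM at 4 h, and 2785, 3399 and 3755 CPM at 20 h in the CD5/CD6 experiment. WT libraries of the LAT experiment had 628, 845 and 630.3 CPM at 0 h, 1789, 1913 and 1595 CPM at 4 h, and 2417, 2525 and 2186 CPM at 20 h. The times did not overlap, and the rise was 1.41 ± 0.18 (adjusted p = 2.38e-10) and 2.44 ± 0.18 (adjusted p = 8.53e-20) at 4 and 20 h in the first experiment. In the second it was 1.33 ± 0.15 (adjusted p = 2.96e-18) and 1.76 ± 0.15 (adjusted p = 8.41e-31). Ldhb, whose subunit favors the reverse reaction, had 26.7, 22.0 and 32.0 CPM at 0 h, 9.76, 10.4 and 11.1 CPM at 4 h, and 27.7, 23.8 and 30.2 CPM at 20 h. Sorted WT libraries had 32.6, 43.8 and 34.5 CPM at 0 h, 11.4, 13.2 and 18.5 CPM at 4 h, and 34.5, 34.6 and 33.3 CPM at 20 h. It fell at 4 h, below all 0 h libraries (−1.37 ± 0.18, adjusted p = 7.58e-10; LAT experiment −1.36 ± 0.18, adjusted p = 1.69e-13), and was back among them at 20 h (0.02 ± 0.17, adjusted p = 1 and −0.12 ± 0.17, adjusted p = 0.683). Of the carriers that move lactate with a proton out of the cell, Slc16a1 (MCT1) had 51.5, 39.1 and 57.4 CPM at 0 h, 476, 480.3 and 514 CPM at 4 h, and 429, 511 and 516 CPM at 20 h in the CD5/CD6 experiment. Sorted WT cells of the LAT experiment had 38.7, 44.6 and 50.2 CPM at 0 h, 472, 502 and 334 CPM at 4 h, and 338, 339.9 and 332 CPM at 20 h. Slc16a3 (MCT4), the carrier of strongly glycolytic cells, had 4.69, 3.34 and 5.00 CPM at 0 h, 52.6, 37.4 and 40.4 CPM at 4 h, and 49.9, 49.1 and 63.8 CPM at 20 h in the first experiment. The second gave 3.06, 3.80 and 3.64 CPM at 0 h, 40.0, 46.0 and 31.8 CPM at 4 h, and 27.9, 35.5 and 21.2 CPM at 20 h. Slc16a1 was up by 4 h, by 3.31 ± 0.18 (adjusted p = 1.75e-26) and 3.29 ± 0.16 (adjusted p = 1.48e-88). So was Slc16a3, by 3.32 ± 0.23 (adjusted p = 1.39e-21) and 3.49 ± 0.22 (adjusted p = 8.96e-54). Neither carrier was called between 4 and 20 h (Slc16a1 −0.02 ± 0.17, adjusted p = 1 and −0.37 ± 0.15, adjusted p = 0.0422, Slc16a3 0.32 ± 0.20, adjusted p = 0.279 and −0.48 ± 0.19, adjusted p = 0.0499).

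The genes of the pyruvate dehydrogenase complex and of the route of pyruvate into the mitochondrion were set against 0 h first. The subunits Pdha1 (126 to 236 CPM) and Pdhb (63.5 to 105 CPM), the phosphatase Pdp1 that switches it on (19.8 to 40.2 CPM) and both parts of the mitochondrial pyruvate carrier, Mpc1 (1.35 to 2.63 CPM) and Mpc2 (31.2 to 77.5 CPM), were not called against 0 h at either time in either experiment. From 4 to 20 h Pdp1 was lower in the LAT experiment, −1.09 ± 0.18 (adjusted p = 7.51e-09), and not called in the CD5/CD6 experiment, −0.84 ± 0.16 (adjusted p = 8.69e-06). Their log2 fold changes at 20 h lay between 0.05 (Pdp1) and 0.75 (Mpc2) in the CD5/CD6 experiment. The kinases that switch the complex off moved in opposite directions. Pdk1 (ENSMUSG00000006494.11, chr2:71873224-71903858, plus strand) had 446, 445 and 383 CPM at 0 h, 57.0, 79.4 and 83.5 CPM at 4 h, and 148, 156 and 150.1 CPM at 20 h in the CD5/CD6 experiment. Its values in the LAT experiment were 506, 364 and 599.5 CPM at 0 h, 71.8, 83.1 and 165 CPM at 4 h, and 144, 149 and 142 CPM at 20 h. Stimulated libraries lay below all 0 h libraries, with −2.54 ± 0.16 (adjusted p = 2.64e-23) at 4 h and −1.49 ± 0.16 (adjusted p = 1.67e-13) at 20 h, and −2.20 ± 0.15 (adjusted p = 1.45e-44) and −1.76 ± 0.15 (adjusted p = 9.62e-30) in the LAT experiment. Pdk3 rose after 4 h, from 24.9, 21.9 and 30.1 CPM at 0 h and 41.7, 32.5 and 39.5 CPM at 4 h to 97.7, 98.5 and 114 CPM at 20 h (2.01 ± 0.17, adjusted p = 2.87e-17; LAT experiment 1.78 ± 0.17, adjusted p = 1.51e-25). Pdk2 went from 13.8 to 18.6 CPM at 0 h to 3.98 to 5.72 CPM at 20 h in the CD5/CD6 experiment, −1.78 ± 0.26 (adjusted p = 1.18e-08), and under a fold change of 2 in the LAT experiment, −0.70 ± 0.19 (adjusted p = 0.001).

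Hif1a, the oxygen-controlled subunit of HIF-1, is regulated chiefly as a protein, and only its mRNA was measured. It had 127, 118 and 148 CPM at 0 h, 611, 558 and 550.1 CPM at 4 h, and 341, 354 and 337 CPM at 20 h in the CD5/CD6 experiment. The sorted WT libraries gave 119, 86.8 and 137 CPM at 0 h, 507, 576 and 482 CPM at 4 h, and 287, 286 and 247 CPM at 20 h. It was highest at 4 h, and the 20 h libraries lay between those at 4 and 0 h. The rise was 2.13 ± 0.16 (adjusted p = 3.15e-20) at 4 h and 1.39 ± 0.15 (adjusted p = 9.31e-13) at 20 h, and 2.19 ± 0.15 (adjusted p = 7.06e-44) and 1.26 ± 0.15 (adjusted p = 6.14e-16) in the LAT experiment.

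In the pentose phosphate pathway, the oxidative arm makes NADPH and the other arm returns or draws sugars. G6pdx, the entry enzyme, had 56.8, 49.0 and 70.7 CPM at 0 h, 79.8, 67.3 and 79.9 CPM at 4 h, and 131, 123 and 117 CPM at 20 h in the CD5/CD6 experiment. For the LAT experiment they were 59.7, 65.0 and 60.2 CPM at 0 h, 74.3, 79.4 and 77.0 CPM at 4 h, and 124, 125 and 115 CPM at 20 h. The 20 h libraries were above all others in both, with 1.07 ± 0.15 (adjusted p = 8.91e-09), which passed the thresholds, and 0.98 ± 0.15 (adjusted p = 1.45e-09), which fell just under a fold change of 2. Pgd, the third step, went from 116 to 155 CPM at 0 h to 317 to 359 CPM at 20 h (1.40 ± 0.15, adjusted p = 1.76e-12; LAT experiment 1.19 ± 0.15, adjusted p = 3.85e-14). Pgls, the second step, was at 30.8 to 80.0 CPM and not called at 20 h (0.24 ± 0.20, adjusted p = 0.42 and −0.06 ± 0.15, adjusted p = 0.894). Rpia, which makes ribose 5-phosphate, went from 62.2 to 79.3 CPM at 0 h to 160.4 to 172 CPM at 4 h (1.26 ± 0.15, adjusted p = 4.33e-11; LAT experiment 1.19 ± 0.15, adjusted p = 1.1e-13). Rpe, its neighbor in the pathway, was at 52.4 to 118 CPM and stayed under a fold change of 2 (0.96 ± 0.16, adjusted p = 3.8e-07 and 0.85 ± 0.15, adjusted p = 2.76e-07 at 20 h). Transketolase (Tkt) had 248, 251 and 313 CPM at 0 h, 616, 538 and 547 CPM at 4 h, and 919, 968 and 888 CPM at 20 h in the CD5/CD6 experiment. The LAT experiment's WT libraries had 307, 360.3 and 286 CPM at 0 h, 548, 465 and 473 CPM at 4 h, and 960.3, 1022 and 962 CPM at 20 h. It climbed at each step without overlap, to 1.77 ± 0.15 (adjusted p = 5.87e-18) and 1.63 ± 0.15 (adjusted p = 5.92e-26) at 20 h. Transaldolase (Taldo1), which works beside it, had 215, 195 and 263 CPM at 0 h, 136, 113 and 145 CPM at 4 h, and 202, 213 and 239 CPM at 20 h. Sorted WT libraries had 223, 348 and 222 CPM at 0 h, 135, 121 and 166 CPM at 4 h, and 216, 226 and 224 CPM at 20 h. Its 4 h libraries lay below those at 0 h, −0.77 ± 0.16 (adjusted p = 5.63e-05) and −0.91 ± 0.15 (adjusted p = 1.17e-08), and at 20 h, with −0.04 ± 0.16 (adjusted p = 1) and −0.25 ± 0.15 (adjusted p = 0.204), it was not called.

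Together the members held 0.508% ± 0.0399 (SD, n = 3) of all counts in WT cells at 0 h, then 0.667% ± 0.0345 at 4 h, rising to 1.37% ± 0.087 at 20 h, in the CD5/CD6 experiment. The shares were 0.554% ± 0.0293, 0.65% ± 0.0143 and 1.21% ± 0.0295 in the LAT experiment. Per kb of exon, the most abundant at 20 h in the CD5/CD6 experiment's WT cells were Ldha (1001 CPM per kb), Aldoa (541), Tpi1 (386), Pkm (356), Tkt (126) and Slc16a1 (109.6), and Gapdh was at 1.38 CPM per kb. Reads of Pgk1, Pgam1, Mpc1, Eno1, Pkm, Gapdh and Ldhb may be lost to or shared with other genes. This ranking and the shares of counts therefore hold for counted reads only.

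Within some enzyme families, the make-up per length shifted, and hexokinases, pyruvate dehydrogenase kinases, glucose transporters and phosphofructokinase-1 are given first. Among hexokinases, Hk2 was 1.26% ± 0.537 at 0 h, then 33.1% ± 2.33 at 4 h and 51.1% ± 1.94 at 20 h in the CD5/CD6 experiment's WT cells (SD, n = 3). It was 0.439% ± 0.119 at 0 h, then 25.2% ± 6.58 at 4 h and 44.8% ± 2.43 at 20 h in the LAT experiment. Hk1 made up 48.9% ± 1.94 and 55.2% ± 2.41 at 20 h, almost all of the rest. Among pyruvate dehydrogenase kinases, Pdk1 was 78.4% ± 4.20 at 0 h, then 36.4% ± 5.89 at 4 h and 31.8% ± 2.00 at 20 h. Pdk3 was 14.4% ± 2.79 at 0 h, then 57.4% ± 7.86 at 4 h and 65.8% ± 2.25 at 20 h in the CD5/CD6 experiment. In the LAT experiment Pdk3 was 15.1% ± 5.61 at 0 h, then 46.8% ± 9.28 at 4 h and 64.4% ± 0.841 at 20 h. Slc2a1, as a share of the 2 transporters, was 61.5% ± 3.30 at 0 h, then 74.2% ± 0.686 at 4 h and 86.6% ± 1.26 at 20 h in the first experiment. The second gave 64.5% ± 4.95 at 0 h, then 74.8% ± 4.27 at 4 h and 84.3% ± 0.681 at 20 h. Pfkl, as a share of phosphofructokinase-1, was 42.1% ± 2.09 at 0 h, then 51.4% ± 0.725 at 4 h and 58.2% ± 1.08 at 20 h in the first experiment and 44.5% ± 3.53 at 0 h, then 53.3% ± 6.25 at 4 h and 61.9% ± 1.81 at 20 h in the second. These 0 h and 20 h shares did not overlap between libraries, but an exact permutation test of 3 against 3 libraries cannot give a two-sided p under 0.1 (0.124 after adjustment over 63 such tests), so none could pass. Mutases, lactate dehydrogenases and phosphofructokinase-2 also shifted without overlap. Eno1 was 81.3% of enolases at 0 h and 79.7% at 20 h (LAT experiment 80.5% and 81.2%), with overlap. The Mpc1 share of pyruvate carriers overlapped in both experiments too, and the Slc16a1 share of its family did in the LAT experiment. Aldoa was nearly all of the aldolases throughout.

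The LAT experiment asked how much of the response needs this adaptor. Without stimulation, Lat-/- and WT cells differed in few members: 0 were higher and 2 lower in Lat-/- cells (0.148% and 0.814% of all genes). Hk2 had 4, 2 and 9 reads in the Lat-/- and 22, 12 and 25 in the WT libraries (−1.71 ± 0.38, adjusted p = 0.000853), and Slc16a3 was at 1.58, 1.63 and 1.71 against 3.06, 3.80 and 3.64 CPM (−1.09 ± 0.24, adjusted p = 0.00086). The Hk2 call was lost with DESeq2, with the filter on low counts, in a fit of these groups alone and without Lat-/- library 2 or replicate number 1, and the Slc16a3 call was lost in the fit of these groups alone, in which Aldoc was called lower instead. After stimulation, Lat-/- cells had 5 members higher and 6 lower at 4 h (3.08% and 3.62% of all genes) and 3 higher and 1 lower at 20 h (2.14% and 2.07%), and the median log2 fold change was −0.19 and 0.05. Against WT cells, 2 members were higher and 10 lower in Lat-/- cells at 4 h (5.51% and 6.23%), and 6 higher and 21 lower at 20 h (12.1% and 12.3%). Among genes that passed the filter on low counts, 22.2% were higher and 22.6% lower at 20 h. The members' median log2 difference was −0.30 at 4 h and −0.97 at 20 h, beside 0.03 at both times over genes that passed the filter.

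The difference between the responses was itself tested, as an interaction. At 4 h, the response was higher in Lat-/- than in WT cells for 3 members, Bpgm, Pdk1 and Pdk2, and lower for 10 (4.37% and 4.34% of all genes): Slc2a1, Hk2, Pfkfb3, Aldoa, Gapdh, Pgam1, Ldha, Slc16a1, Slc16a3 and Rpia. At 20 h it was higher for 4, Pfkfb4, Bpgm, Pdk1 and Pdk2, and lower for 19 (10.1% and 9.35%): Slc2a1, Hk2, Pfkl, Pfkm, Pfkp, Aldoa, Tpi1, Gapdh, Pgk1, Pgam1, Eno3, Pkm, Ldha, Slc16a1, Slc16a3, Pdk3, Pgd, Rpia and Tkt. Of the 23 calls at 20 h, 21 held under every alternative, and of the 13 at 4 h, 3 did. Levels of Gapdh, Pgk1, Pgam1 and Pkm are uncertain, since their transcripts share stretches with other genes. Without replicate number 1 the 4 h counts were 1 higher and 3 lower, and with scaling by library totals they were 6 and 6.

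**Figure D2:**
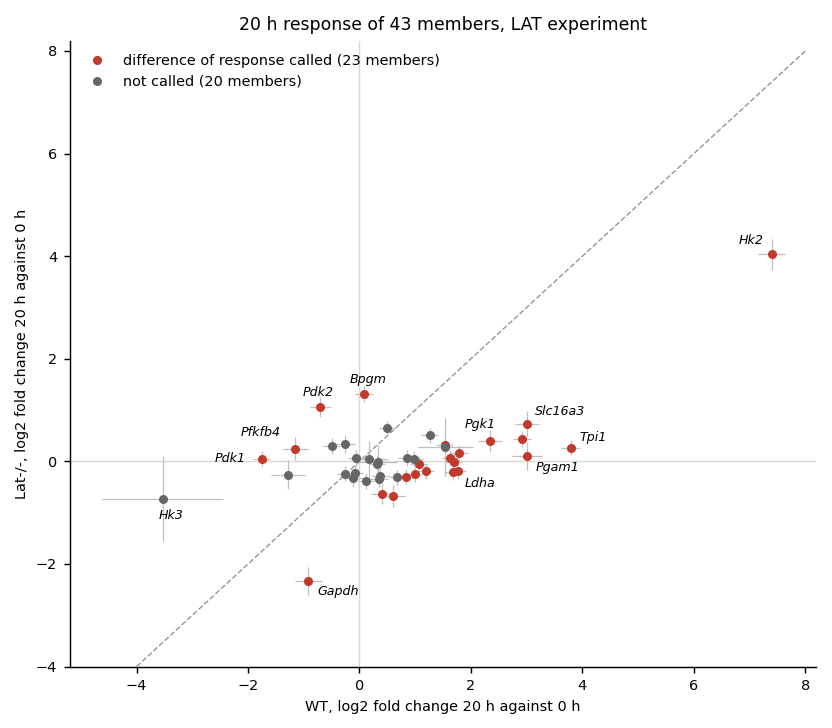
Log2 fold change at 20 h against 0 h in Lat-/- cells (vertical) against that in WT cells (horizontal) of the LAT experiment, 1 point per gene with SE bars and the dashed line of equal response. Red points are the 23 genes whose responses differed by a fold change above 2 with adjusted p under 0.05: Hk2 lies at 7.40 and 4.04, Tpi1 at 3.79 and 0.27, and most red points lie near 0 on the vertical axis.

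Among transporters and hexokinases, Slc2a1 was not called at either time without LAT, with 54.1, 57.0 and 57.9 CPM at 0 h, 53.7, 55.5 and 61.3 CPM at 4 h, and 50.3, 56.8 and 56.5 CPM at 20 h in Lat-/- cells. Those libraries overlapped between times, and the difference in response, Lat-/- minus WT, was −1.13 ± 0.22 (adjusted p = 4.89e-06) at 4 h and −1.11 ± 0.22 (adjusted p = 2.91e-06) at 20 h. Slc2a3 had 45.7, 55.0 and 61.4 CPM at 0 h, 41.7, 43.3 and 49.3 CPM at 4 h, and 61.8, 73.2 and 64.8 CPM at 20 h, with a difference in response of 0.80 ± 0.22 (adjusted p = 0.0015) at 20 h, under a fold change of 2. Hk2 still rose, from very little, with 0.197, 0.0932 and 0.366 CPM at 0 h, 2.40, 2.99 and 3.17 CPM at 4 h, and 2.78, 0.705 and 7.91 CPM at 20 h in Lat-/- cells. Its log2 fold change was 3.62 ± 0.32 (adjusted p = 2.12e-27) and 4.04 ± 0.31 (adjusted p = 1.53e-36), yet at 20 h its level lay below every WT library, with −5.07 ± 0.21 (adjusted p = 2.15e-129) against WT, or 33.7-fold lower. Hk1 was at 254, 244 and 229 CPM at 0 h, 192, 189 and 198 CPM at 4 h, and 228, 195 and 203 CPM at 20 h, and at 20 h differed from WT by −0.11 ± 0.15 (adjusted p = 0.633). Hk3 had 7, 2 and 9 reads in the Lat-/- and 2, 0 and 0 in the WT libraries at 20 h, a call that rests on few reads.

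No phosphofructokinase-1 subunit was called higher at 20 h in Lat-/- cells. Pfkl was at 102, 107 and 91.0 CPM at 0 h, 70.6, 78.9 and 94.2 CPM at 4 h, and 88.0, 95.2 and 113 CPM at 20 h in Lat-/- cells, with a difference in response of −1.71 ± 0.21 (adjusted p = 2.61e-14) at 20 h. Pfkm dipped at 4 h (−1.42 ± 0.20, adjusted p = 3.02e-11) and ended at 15.6, 12.6 and 14.6 CPM at 20 h, from 22.3, 21.0 and 23.1 at 0 h and 8.98, 6.57 and 9.21 at 4 h. Pfkp was at 136, 139 and 119.9 CPM at 0 h, 98.4, 109 and 101 CPM at 4 h, and 114, 100.5 and 107 CPM at 20 h. All 3 subunits lay below the WT libraries at 20 h without overlap (−1.65 ± 0.15, adjusted p = 7.92e-26, −1.15 ± 0.19, adjusted p = 1.03e-08 and −1.25 ± 0.15, adjusted p = 1.18e-15). Pfkfb3 showed no 4 h peak, with 60.0, 64.5 and 72.3 CPM at 0 h, 70.2, 62.2 and 66.0 CPM at 4 h, and 52.3, 59.0 and 51.1 CPM at 20 h, and its response at 4 h differed by −1.80 ± 0.22 (adjusted p = 1.03e-14). Pfkfb2 and Pfkfb4, lower with time in WT cells, were at 2.77 to 5.87 and 10.9 to 16.6 CPM at 20 h, above WT (1.15 ± 0.30, adjusted p = 0.000659 and 1.18 ± 0.23, adjusted p = 1.11e-06).

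In the lower pathway, Tpi1 had the largest log2 difference in level from WT cells at 20 h after Hk2. Lat-/- libraries had 46.7, 48.2 and 49.3 CPM at 0 h, 25.9, 22.5 and 28.0 CPM at 4 h, and 45.6, 33.5 and 94.3 CPM at 20 h. At 20 h they lay below every WT library, and the difference in response was −3.52 ± 0.22 (adjusted p = 2.89e-56). Aldoa was at 524, 598 and 452 CPM at 0 h, 418, 488 and 472 CPM at 4 h, and 587, 578 and 799 CPM at 20 h, with a difference of −1.21 ± 0.21 (adjusted p = 5.41e-08). The reads counted for Gapdh fell in Lat-/- cells, with 9.58, 8.25 and 12.7 CPM at 0 h, 1.53, 3.17 and 2.71 CPM at 4 h, and 1.82, 2.00 and 2.23 CPM at 20 h (−2.33 ± 0.27, adjusted p = 3.44e-16 at 20 h). They numbered only 2852 over the 18 libraries of this experiment, so they may not follow the level of its mRNA. Pgk1 was at 5.34 to 9.80 CPM at 20 h, against 29.4 to 39.0 CPM in WT (−2.31 ± 0.21, adjusted p = 8.03e-26). Pgam1, which climbed in WT cells, was at 2.57, 2.28 and 1.91 CPM at 0 h, 2.65, 3.64 and 3.49 CPM at 4 h, and 2.12, 2.12 and 2.99 CPM at 20 h, a difference in response of −2.91 ± 0.37 (adjusted p = 1.7e-13). Eno1 was at 192, 201 and 169.6 CPM at 0 h, 85.3, 102 and 104 CPM at 4 h, and 132, 152 and 169 CPM at 20 h, below WT at 20 h (−1.27 ± 0.15, adjusted p = 3.28e-16). Its response differed by −0.99 ± 0.21 (adjusted p = 2.08e-05), under the fold change of 2. Among its relatives, Eno2 and Eno3 were lower than in WT at 20 h (−1.86 ± 0.51, adjusted p = 0.00102 and −2.11 ± 0.21, adjusted p = 1.13e-21), and Aldoc was too (−1.25 ± 0.34, adjusted p = 0.000883). Pkm was at 504, 566 and 453 CPM at 0 h, 339.5, 354 and 381 CPM at 4 h, and 378, 384 and 551 CPM at 20 h, with a difference of −1.88 ± 0.21 (adjusted p = 4.44e-18).

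Bpgm was the one gene between aldolase and pyruvate kinase that was called higher in stimulated Lat-/- than in WT cells, at 39.0, 37.9 and 39.9 CPM at 0 h, 80.4, 98.7 and 59.1 CPM at 4 h, and 92.3, 112 and 87.0 CPM at 20 h. It rose in Lat-/- cells (1.03 ± 0.16, adjusted p = 2.54e-09 and 1.32 ± 0.16, adjusted p = 8.31e-15) and its response differed by 1.26 ± 0.22 (adjusted p = 3.55e-07) at 4 h and 1.24 ± 0.22 (adjusted p = 2.2e-07) at 20 h. Erythroid genes summed to at most 3.54 CPM in each library of this experiment.

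Of the lactate genes, Ldha in Lat-/- cells was at 653, 836 and 619 CPM at 0 h, 689.6, 736 and 682 CPM at 4 h, and 558, 564 and 725 CPM at 20 h, with a difference in response of −1.33 ± 0.21 (adjusted p = 4.16e-09) at 4 h and −1.95 ± 0.21 (adjusted p = 1.3e-19) at 20 h. Ldhb, in contrast, fell at 4 h as in WT cells, with 32.7, 39.5 and 35.1 CPM at 0 h, 15.3, 16.7 and 20.0 CPM at 4 h, and 23.0, 31.4 and 31.2 CPM at 20 h (−1.04 ± 0.18, adjusted p = 7.87e-08). Its responses at 4 and 20 h differed from those of WT by 0.32 ± 0.25 (adjusted p = 0.543) and −0.21 ± 0.24 (adjusted p = 0.714), which were not called. Both carriers rose at 4 h, to lower levels than in WT. Slc16a1 had 33.7, 41.3 and 41.9 CPM at 0 h, 86.8, 79.9 and 83.9 CPM at 4 h, and 46.6, 43.1 and 68.7 CPM at 20 h. Slc16a3 had 1.58, 1.63 and 1.71 CPM at 0 h, 7.61, 7.34 and 10.5 CPM at 4 h, and 2.83, 1.93 and 3.49 CPM at 20 h. By 20 h neither was called against 0 h (0.44 ± 0.15, adjusted p = 0.0383 and 0.74 ± 0.25, adjusted p = 0.0313). The difference in response at 20 h was −2.48 ± 0.22 (adjusted p = 8.27e-29) for Slc16a1 and −2.27 ± 0.33 (adjusted p = 6.24e-11) for Slc16a3.

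The kinase Pdk1 dipped at 4 h and returned, with 738, 641 and 911 CPM at 0 h, 320.1, 321 and 403 CPM at 4 h, and 796, 808 and 773 CPM at 20 h in Lat-/- cells. At 20 h each of these libraries lay above the WT libraries (2.45 ± 0.15, adjusted p = 1.3e-54), and the difference in response was 1.81 ± 0.21 (adjusted p = 1.48e-16). Pdk2 went from 14.3 to 17.7 CPM at 0 h and 16.1 to 21.8 CPM at 4 h to 30.2 to 36.1 CPM at 20 h (1.06 ± 0.19, adjusted p = 1.19e-06; difference 1.76 ± 0.27, adjusted p = 9.67e-10), and Pdk3 stayed at 22.6 to 35.5 CPM (difference −1.61 ± 0.23, adjusted p = 4.57e-11). As a share of the 3 kinases, Pdk1 was 86.0% ± 3.05 at 0 h, then 71.9% ± 2.35 at 4 h and 82.1% ± 1.42 at 20 h without LAT. Pdha1, Pdhb, Pdp1, Mpc1 and Mpc2 were not called between genotypes at any time. Hif1a had 100.2, 124 and 128 CPM at 0 h, 357, 260 and 321 CPM at 4 h, and 176, 161 and 164 CPM at 20 h, with a rise at 4 h (1.41 ± 0.15, adjusted p = 7.77e-19). Its difference in response was −0.78 ± 0.21 (adjusted p = 0.00221) at 4 h and −0.75 ± 0.21 (adjusted p = 0.00186) at 20 h, under a fold change of 2.

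In the pentose phosphate pathway, Lat-/- libraries had G6pdx at 62.1, 75.4 and 59.6 CPM at 0 h, 72.0, 68.9 and 78.2 CPM at 4 h, and 59.2, 71.9 and 72.7 CPM at 20 h. Its difference in response at 20 h, −0.93 ± 0.22 (adjusted p = 0.000118), was under a fold change of 2. Tkt had 274, 289 and 264 CPM at 0 h, 222, 235 and 261 CPM at 4 h, and 259, 262 and 350 CPM at 20 h, with a difference of −1.55 ± 0.21 (adjusted p = 1.85e-12). Taldo1 had 245, 279 and 223 CPM at 0 h, 145, 173 and 179 CPM at 4 h, and 202, 206 and 224 CPM at 20 h and was not called between genotypes (−0.07 ± 0.15, adjusted p = 0.824 at 20 h). Pgd and Rpia were lower than in WT at 20 h (−1.66 ± 0.15, adjusted p = 4.33e-26 and −1.33 ± 0.15, adjusted p = 4.67e-17), and Rpe (−0.66 ± 0.15, adjusted p = 8.89e-05) and Pgls (0.10 ± 0.15, adjusted p = 0.699) were not called. All members together held 0.567% ± 0.00579 (SD, n = 3) of the counts of Lat-/- libraries at 0 h, 0.461% ± 0.0361 at 4 h and 0.569% ± 0.0489 at 20 h. Among the Lat-/- libraries at 20 h, library 3 was the highest for 17 of the 21 members lower than in WT, as for Hk2 and Tpi1 above, and without it the number of members called lower at 20 h was again 21.

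**Figure D3:**
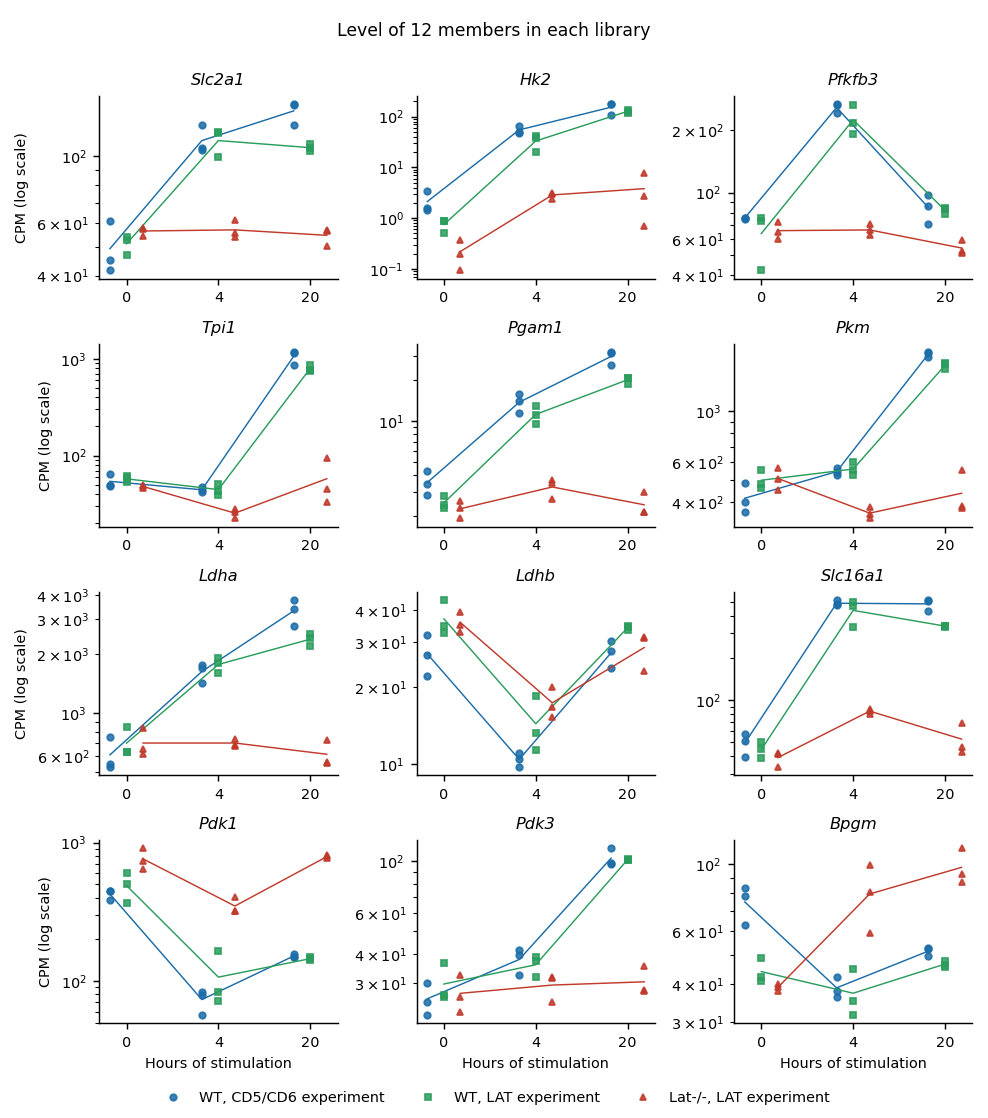
CPM (log axis) of 12 members at 0, 4 and 20 h (equally spaced) in the CD5/CD6 experiment's WT cells and in WT and Lat-/- cells of the LAT experiment, 1 point per library with lines through the means. The WT groups of both experiments run close together, Hk2, Tpi1, Pgam1 and Ldha of Lat-/- cells end far below them at 20 h, and Pdk1 ends above.

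The CD5/CD6 experiment asked whether loss of CD5, which dampens T cell signals, or of CD6, which binds both positive and negative regulators, alters the response. Each knockout was first set against its own 0 h libraries. Cd5-/- cells had 13 higher and 11 lower at 4 h (8.2% and 11.3% of all genes) and 19 higher and 5 lower at 20 h (12.5% and 17.5%). Cd6-/- cells had 11 and 11 at 4 h (7.72% and 10.2%) and 19 and 5 at 20 h (11.4% and 16.8%). Cd5-/-Cd6-/- cells had 12 and 7 at 4 h (7.57% and 9.66%) and 19 and 5 at 20 h (12.3% and 18%). Without the 0 h libraries 2 of the Cd5-/- and Cd6-/- groups the counts were 14 and 10, then 19 and 6, in Cd5-/- and 12 and 12, then 19 and 4, in Cd6-/- cells. Slc2a1, for example, stood at 127, 149 and 149 CPM in WT, 148, 168 and 209.6 CPM in Cd5-/-, 121, 151 and 150.1 CPM in Cd6-/- and 139.9, 162 and 175 CPM in Cd5-/-Cd6-/- cells at 20 h. Ldha stood at 2785, 3399 and 3755 CPM in WT, 3023, 3453 and 4776 CPM in Cd5-/-, 2856, 3152 and 3670 CPM in Cd6-/- and 3201, 3524 and 4251 CPM in Cd5-/-Cd6-/- cells. For both genes the ranges of each knockout and of WT overlapped, and each Cd5-/- and Cd5-/-Cd6-/- library was above the WT library of its number. With the number as a block, 0 members were called against WT in any knockout.

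Set directly against WT cells, 0 members were called in any knockout at any time by edgeR, and 0 by DESeq2. Among all genes, 0.0619%, 0.0743% and 0.0186% were called in either direction at 0, 4 and 20 h in Cd5-/- cells, with 0%, 0.0031% and 0.0186% for Cd6-/- and 0.0248%, 0.0434% and 0.0434% for Cd5-/-Cd6-/-. For the difference in response, 0 members and 0.0031% of all genes were called at both 4 and 20 h in Cd5-/-, 0 members and 0% and 0.0031% in Cd6-/-, and 0 members and 0% at both times in Cd5-/-Cd6-/- cells. Members with an unadjusted p under 0.05 numbered 0, 4 and 6 at the 3 times for Cd5-/- (2.96%, 3.39% and 2.24% of all genes). For Cd6-/- they numbered 1, 3 and 1 (2.19%, 2.74% and 1.68%), and for Cd5-/-Cd6-/- 0, 2 and 4 (1.84%, 2.76% and 2.30%). By the same measure the difference in response at 4 and 20 h had 3 and 2 members for Cd5-/- (2.07% and 2.29% of all genes). It had 0 and 1 for Cd6-/- (2.27% and 2.07%) and 1 and 2 for Cd5-/-Cd6-/- (2.08% and 1.73%).

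For each comparison the member with the lowest p was taken. Leaving out Hk3, which had 0 to 4 reads per knockout library at 20 h, the lowest unadjusted p in Cd5-/- cells belonged to Hk2 at 0 h (−0.55 ± 0.29, unadjusted p = 0.0649, adjusted p = 1), Slc16a3 at 4 h (0.63 ± 0.20, unadjusted p = 0.00282, adjusted p = 0.437) and Pdp1 at 20 h (0.46 ± 0.16, unadjusted p = 0.00479, adjusted p = 1). Hk3 had a lower p for Cd6-/- against WT at 20 h (unadjusted p = 0.0329) and for the Cd5-/- difference in response at 20 h (unadjusted p = 0.00901), on those few reads. In Cd6-/- cells the lowest belonged to Pgls at 0 h (0.42 ± 0.20, unadjusted p = 0.041, adjusted p = 1), Pfkm at 4 h (0.45 ± 0.19, unadjusted p = 0.0212, adjusted p = 1) and Pfkfb2 at 20 h (0.51 ± 0.32, unadjusted p = 0.11, adjusted p = 1). In Cd5-/-Cd6-/- cells it belonged to Ldhb at 0 h (−0.26 ± 0.17, unadjusted p = 0.139, adjusted p = 1), Bpgm at 4 h (0.56 ± 0.20, unadjusted p = 0.00575, adjusted p = 1) and Pdp1 at 20 h (0.54 ± 0.16, unadjusted p = 0.00104, adjusted p = 0.669). Erythroid genes summed at 4 h to 1090 to 4140 CPM in Cd5-/-Cd6-/- and 1113 to 2128 CPM in WT libraries, and their part in the Bpgm value was not tested. Pdp1 at 20 h was at 20.3, 22.0 and 22.7 CPM in WT, 26.0, 28.5 and 34.8 CPM in Cd5-/- and 29.4, 31.1 and 33.9 CPM in Cd5-/-Cd6-/- cells, which share the WT libraries. For the difference in response, the lowest p belonged to Slc16a3 at 4 h (0.67 ± 0.30, unadjusted p = 0.0288, adjusted p = 1) and Hk2 at 20 h (0.84 ± 0.38, unadjusted p = 0.0293, adjusted p = 1) in Cd5-/- cells. It belonged to Eno3 (−0.47 ± 0.24, unadjusted p = 0.0557, adjusted p = 1) and Pgls (−0.67 ± 0.28, unadjusted p = 0.021, adjusted p = 1) in Cd6-/-, and to Pfkm (0.56 ± 0.26, unadjusted p = 0.0349, adjusted p = 1) and Pdp1 (0.57 ± 0.22, unadjusted p = 0.0126, adjusted p = 1) in Cd5-/-Cd6-/- cells. Over the other 42 members, log2 differences from WT ran from −0.98 (Eno2) to 0.48 (Slc16a3) in Cd5-/- cells at 20 h, with a median size of 0.11, and 40 of 42 were under 0.5. In Cd6-/- cells at 20 h they ran from −0.37 (Eno2) to 0.51 (Pfkfb2), and in Cd5-/-Cd6-/- cells from −0.71 (Pdk2) to 0.54 (Pdp1).

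With all libraries numbered 2 left out, 1 member was called at each of 2 times: Hk2 was lower in Cd5-/- cells at 0 h (log2 fold change −1.10, adjusted p = 0.00551 by edgeR), and Hk3 was lower at 4 h, on 8, 8 and 25 reads in WT and 0, 17 and 2 reads in Cd5-/- libraries. Without only the 0 h libraries 2 of Cd5-/- and Cd6-/-, 0 members were called in the 6 comparisons with WT cells that use them (each genotype at 0 h and its differences in response at 4 and 20 h). Those 6 then had 3, 3 and 4 members with an unadjusted p under 0.05 for Cd5-/- (4.21%, 2.53% and 2.88% of all genes) and 2, 2 and 4 for Cd6-/- (4.34%, 3.23% and 3.23%). For Cd5-/- cells Hk2 was then at −0.88 ± 0.27 (unadjusted p = 0.00146, adjusted p = 0.142) at 0 h, with a difference in response of 1.18 ± 0.34 (unadjusted p = 0.000553, adjusted p = 0.249) at 20 h, and Slc16a3 had a difference of 0.89 ± 0.29 (unadjusted p = 0.00241, adjusted p = 1) at 4 h. For Cd6-/- cells Pgls was at 0.63 ± 0.19 (unadjusted p = 0.00146, adjusted p = 0.494) at 0 h, with a difference in response of −0.87 ± 0.26 (unadjusted p = 0.00108, adjusted p = 0.749) at 20 h, and Eno3 had one of −0.44 ± 0.28 (unadjusted p = 0.116, adjusted p = 1) at 4 h. Gapdh had the lowest p in Cd6-/- cells at 0 h without those libraries, −1.05 ± 0.31 (unadjusted p = 0.000748, adjusted p = 0.333).

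**Figure D4:**
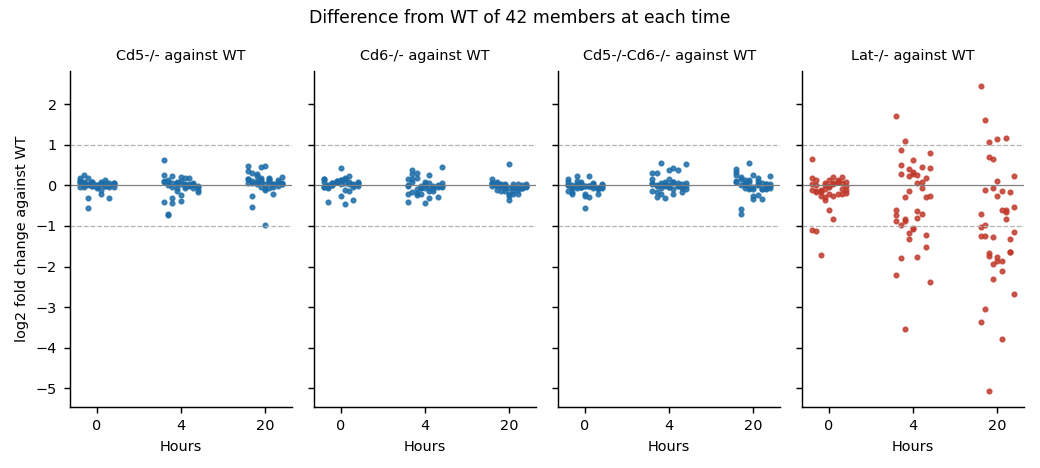
Log2 fold change against WT of the same experiment for 42 members (without Hk3) at 0, 4 and 20 h in Cd5-/-, Cd6-/-, Cd5-/-Cd6-/- and Lat-/- cells, 1 point per gene, with dashed lines at −1 and 1. Points of the 3 CD5/CD6 knockouts lie between the dashed lines at all times, and those of Lat-/- cells spread downward from 0 to 20 h as far as −5.07 (Hk2).

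Of 60 other genes of sugar metabolism and its control, 57 had reads in the CD5/CD6 and 53 in the LAT experiment. In WT cells 9 were higher and 15 lower at 4 h and 16 higher and 10 lower at 20 h in the first experiment, and 4 and 11, then 12 and 4, in the second. Of all genes tested, 8.24% were higher and 11.1% lower at 4 h and 12.3% and 17.3% at 20 h in the first. The second gave 8.05% and 9.29%, then 10.8% and 12.7%. Among genes that passed the filter on low counts these shares were 15.7% and 21.2%, then 23.2% and 30.8%, in the first. They were 14.8% and 17.6%, then 19.7% and 23%, in the second. At 20 h, 11 of the 60 were higher and 4 lower in both experiments, an overlap not counted over all genes. Galk1, which brings galactose into the pathway, rose by 4.05 ± 0.21 on the log2 scale (adjusted p = 9.18e-29) and 3.35 ± 0.17 (adjusted p = 5.89e-88). Egln3, a prolyl hydroxylase that marks HIF-1α for decay, rose by 2.78 ± 0.24 (adjusted p = 4.1e-17) and 1.96 ± 0.26 (adjusted p = 3.14e-13), and Prps1, which turns ribose 5-phosphate into the precursor of nucleotides, by 1.84 ± 0.17 (adjusted p = 3.01e-15) and 1.35 ± 0.15 (adjusted p = 1.54e-17). Slc2a9, a urate carrier of the glucose transporter family, and Khk, which phosphorylates fructose, were lower, with −2.08 ± 0.21 (adjusted p = 2.13e-14) and −1.58 ± 0.20 (adjusted p = 9.04e-15) for Slc2a9 and −1.91 ± 0.24 (adjusted p = 1.16e-10) and −1.49 ± 0.20 (adjusted p = 3.99e-13) for Khk. In Lat-/- cells 0 were higher and 4 lower at 4 h (3.08% and 3.62% of all genes) and 2 and 2 at 20 h (2.14% and 2.07%). At 20 h the response of 13 of these genes was lower and that of 2 higher in Lat-/- than in WT cells (9.35% and 10.1% of all genes), with −3.17 ± 0.22 for Galk1 (adjusted p = 1e-43).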

How the data were processed

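The authors aligned single 50-base reads of stranded mRNA libraries to GRCm38 with STAR and deposited raw counts per gene from featureCounts, 1 table per experiment (demultiplexing by bcl2fastq 2.17.1.14, and DESeq2 for their own comparisons, per the labels and methods). The annotation release, strand setting and treatment of multimapping reads are not given in the sources used here. Gene symbols and positions came from GENCODE by identifier (55144 of 55385 matched).

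Genes with at least 1 read in an experiment were tested with edgeR 4.0.16 (R 4.3.3; TMM scaling, quasi-likelihood test, Benjamini-Hochberg adjustment over all genes tested), with all samples of an experiment in 1 fit with a coefficient for each condition, and calls required a fold change over 2 with adjusted p under 0.05. The 2 experiments were never fitted together. SEs were taken from the fold change and the F statistic. CPM are TMM-scaled, and CPM per kb divide by exon length. The procedure was tested on simulated data. Alternatives were DESeq2 1.42.0, another scaling, filters, the groups compared alone, adjusted p alone, a replicate block and leaving out libraries. No sample column was left unused (0). P-values measure the spread between these samples. All members are named, with values per library for 22 fixed ones and ranges or values per library for the others. For knockouts without a called member the one with the lowest p is named, and of 60 other pathway genes up to 3 per direction with the largest change called in both experiments and a mean of at least 50 counts. Shared stretches were counted as 50-base runs of annotated transcripts found in another gene's. Members, lists and named genes were chosen with earlier results of these data known.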

Additional observations from a re-analysis of the deposited data

Results flagged for a closer look

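Responses of Lat-/- and WT cells were compared by an interaction term in edgeR's quasi-likelihood test (3 libraries per group and time), and 36 of the differences among members passed the thresholds, 13 at 4 h and 23 at 20 h. Of all genes, 4.37% were higher and 4.34% lower at 4 h, and 10.1% and 9.35% at 20 h. Among genes that passed the filter on low counts, 8.54% and 8.52% were at 4 h, and 19.4% and 18% at 20 h. Only 3 of the 13 calls at 4 h held under every alternative, and 21 of the 23 at 20 h did. Values below are log2 differences, Lat-/- minus WT.

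At 4 h the response was lower in Lat-/- cells for Slc2a1 (−1.13), Hk2 (−1.82), Pfkfb3 (−1.80), Aldoa (−1.06), Gapdh (−1.30), Pgam1 (−1.63), Ldha (−1.33), Slc16a1 (−2.19), Slc16a3 (−1.12) and Rpia (−1.13). It was higher for Bpgm (1.26), Pdk1 (1.07) and Pdk2 (1.02).

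At 20 h it was lower for Slc2a1 (−1.11), Hk2 (−3.36), Pfkl (−1.71), Pfkm (−1.03), Pfkp (−1.14), Aldoa (−1.21), Tpi1 (−3.52), Gapdh (−1.42), Pgk1 (−1.95), Pgam1 (−2.91), Eno3 (−1.29), Pkm (−1.88), Ldha (−1.95), Slc16a1 (−2.48), Slc16a3 (−2.27), Pdk3 (−1.61), Pgd (−1.38), Rpia (−1.25) and Tkt (−1.55). It was higher for Pfkfb4 (1.40), Bpgm (1.24), Pdk1 (1.81) and Pdk2 (1.76). All 10 genes lower at 4 h except Pfkfb3 were also lower at 20 h, and the 3 genes higher at 4 h were higher at 20 h too. Both tests use the same 0 h libraries, so this overlap is not independent. The values for Gapdh, Pgk1, Pgam1 and Pkm are uncertain, since their transcripts share stretches with other genes.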

How the results depend on the processing

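No called member changed direction under any alternative run. Of the calls in WT cells, those held under every alternative were 16 of 22 at 4 h and 22 of 25 at 20 h in the CD5/CD6 experiment and 14 of 19 and 16 of 20 in the LAT experiment; against WT, 0 of 2, 10 of 12 and 22 of 27 held in Lat-/- cells at 0, 4 and 20 h. With DESeq2, with the filter on low counts or with only the groups compared, 1 member was lower in Lat-/- than WT cells at 0 h (main 2): Slc16a3 under the first 2 settings and Aldoc under the last.

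By adjusted p alone, counts were 7 higher and 3 lower for Lat-/- 20 h and 10 lower for Lat-/- 4 h against 0 h; 1 higher at 0 h and 8 higher and 19 lower at 4 h for Lat-/- against WT; 7 higher and 17 lower for the difference of the 4 h response; 21 higher and 15 lower at 4 h and 7 lower from 4 to 20 h for WT of the CD5/CD6 experiment; and 15 lower at 4 h, 7 lower at 20 h and 25 higher and 6 lower from 4 to 20 h for WT of the LAT experiment. Scaling by library totals, which moved the median of all genes by −0.23 in WT cells at 4 h in both experiments, gave 7 higher at 4 h and 1 lower from 4 to 20 h for WT of the LAT experiment, and 6 higher and 6 lower for the difference of the 4 h response. It ended the 4 h calls of Aldoa, Slc2a1 and Tkt in the CD5/CD6 and of Eno2, Pgk1, Rpia and Slc2a1 in the LAT experiment. Upper-quartile scaling (shift 0.32 and 0.16 at 4 h) gave 11 higher and 7 lower from 4 to 20 h in the CD5/CD6 and 4 lower in the LAT experiment, and ended the 4 h calls of Eno1 and Pfkfb4 in the former. The cause was not tested.

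Leaving out replicates, the ranges were 0 to 1 for Cd5-/- against WT at 0 h and at 4 h; 1 to 3 lower at 0 h and 1 to 4 higher at 4 h for Lat-/- against WT; 2 to 5 lower at 20 h (2 without replicate number 3) and 1 to 3 lower from 4 to 20 h for WT of the LAT experiment; and 1 to 6 higher and 3 to 11 lower for the difference of the 4 h response (1 and 3 without replicate number 1, 6 higher without number 3). Fits without a single library kept the dispersion trend of the full fit. With CPM not divided by length, the difference in the Pdk2 share at 20 h between Lat-/- and WT cells turned from 2.85 to −0.346 percentage points. The replicate block ended no call of a member and added 5. Same-numbered samples correlated with a mean r of 0.229 (145 of 198 pairs above 0.1; −0.114 between other numbers) in the CD5/CD6 and 0.0705 (15 of 45; −0.0344) in the LAT experiment. Samples of 1 number thus shared some of their deviation in the CD5/CD6 experiment. The main fits did not take the numbers as pairs and left this in the spread, and the replicate block did take them so.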
